A study of Homo sapiens with 8 samples.

Results

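Chromosome 12 carries 1034 of the 19957 promoter windows counted in this study (5.18%). They were chosen by the chromosome in the window's own name, with no use of any measured value, and all 8 libraries were kept. Each window spans 2001 bp centred on an annotated gene start, on build hg38. The short arm (p) holds 288 of them and the long arm (q) 746, from position 65764 to position 133237096.

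The libraries are genomic DNA of RPE1, a human retinal pigment epithelial cell line immortalised with telomerase. OGAP-seq pulls down DNA fragments with oxidative base damage, and an input library is DNA of the same kind without the pull-down. WT cells had no doxycycline, and KD cells, depleted of NuMA (also called TDIF in the labels), were taken after doxycycline, which means that the drug and the depletion cannot be told apart. WT and KD cells each gave 2 OGAP and 2 input libraries, which makes 4 groups, all from the one line. The labels do not say whether the pair of libraries in a group comes from different cultures; p-values here measure library-to-library spread, which may be technical.

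As background, guanine is the base most easily oxidised, above all within runs of guanines, and 8-oxoguanine is its common product. In AP-seq methods the glycosylase OGG1 removes that base and the site it leaves is tagged and pulled down; the steps used for these libraries are not given in any source used here. Input DNA follows the number of copies of a region, so input reads per window serve as a copy-number measure. RPE1 is near-diploid with a known extra copy of part of the long arm of chromosome 10, and some RPE1 lines gain chromosome 12 in culture. Chromosome 12 holds the HOXC cluster, the type II keratins, the natural killer receptor cluster and 3 glycosylases of base excision repair.

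Promoter sequence is shown for windows that led the comparison of OGAP with input in WT, because the number of guanine runs differs widely among them. Of the 8 named windows that were higher in WT OGAP, 4 had a RefSeq promoter (GRCh38.p14) starting within 100 bp of the window's centre, and of the 8 that were lower, 2 had one. The 250 bases before the start are given 5′ to 3′ on the strand of the gene, with capitals marking runs of 3 or more G or of 3 or more C. The first 3 were higher in WT OGAP than in input: SIRT4 at chr12:120302071-120302320 on the plus strand, DHX37 at chr12:124989132-124989381 on the minus strand and LALBA at chr12:48570047-48570296 on the minus strand. YBX3 at chr12:10723324-10723573 and RILPL1 at chr12:123533720-123533969, both on the minus strand, were lower.
SIRT4: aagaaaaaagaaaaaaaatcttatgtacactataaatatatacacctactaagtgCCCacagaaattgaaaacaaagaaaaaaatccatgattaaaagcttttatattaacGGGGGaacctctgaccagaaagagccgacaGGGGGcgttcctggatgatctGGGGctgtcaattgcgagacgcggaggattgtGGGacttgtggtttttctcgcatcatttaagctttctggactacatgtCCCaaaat
DHX37: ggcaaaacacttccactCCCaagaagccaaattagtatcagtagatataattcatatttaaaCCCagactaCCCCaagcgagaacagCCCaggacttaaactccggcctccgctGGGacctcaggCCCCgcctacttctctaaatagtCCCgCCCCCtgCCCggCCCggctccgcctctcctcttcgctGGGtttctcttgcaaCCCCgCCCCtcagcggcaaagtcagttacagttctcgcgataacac
LALBA: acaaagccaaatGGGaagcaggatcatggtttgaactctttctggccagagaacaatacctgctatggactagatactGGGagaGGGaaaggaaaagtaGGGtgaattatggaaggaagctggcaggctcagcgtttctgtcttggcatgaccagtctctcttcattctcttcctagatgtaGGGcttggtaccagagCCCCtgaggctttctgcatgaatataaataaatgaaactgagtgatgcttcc
YBX3: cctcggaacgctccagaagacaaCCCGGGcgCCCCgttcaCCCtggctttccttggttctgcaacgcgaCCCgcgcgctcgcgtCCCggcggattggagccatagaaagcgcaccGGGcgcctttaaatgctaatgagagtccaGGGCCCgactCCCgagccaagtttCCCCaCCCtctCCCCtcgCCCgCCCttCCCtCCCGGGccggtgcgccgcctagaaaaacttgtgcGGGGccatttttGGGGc
RILPL1: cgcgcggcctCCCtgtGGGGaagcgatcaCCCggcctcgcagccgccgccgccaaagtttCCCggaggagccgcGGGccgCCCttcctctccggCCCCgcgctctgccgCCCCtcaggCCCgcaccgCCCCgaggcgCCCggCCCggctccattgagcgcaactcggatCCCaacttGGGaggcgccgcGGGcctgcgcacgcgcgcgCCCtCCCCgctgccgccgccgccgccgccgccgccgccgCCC

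The SIRT4 stretch had a GC content of 39.6% with 7 CG dinucleotides and 6 runs. DHX37 had 55.2%, 13 and 13, and LALBA had 46.0%, 1 and 6. The lower windows were richer in both: YBX3 had a GC content of 66.0%, 26 CG dinucleotides and 20 runs, and RILPL1 had 81.2%, 43 and 18. Over 35114 RefSeq promoters of the same length the median GC content was 58.0% (5th to 95th percentile 34.4% to 78.4%), with a median of 11 CG dinucleotides and 11 runs. GGG or CCC occurred in 99.0% of them, so its presence says nothing particular. TATAAA, searched on both strands, was in the SIRT4 and LALBA stretches and in 10.7% of all promoters. These 5 stretches were picked by p-value and describe themselves; a relation between base composition and OGAP over input was not tested, since only 623 of the 1034 windows (60.3%) had a promoter sequence, under the 80% needed.

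The 8 libraries held 368593 to 771138 reads over all windows, of which 18410 to 36322 lay on chromosome 12. The median chromosome 12 window held 16 and 18 reads in the WT OGAP libraries and 35 and 36 in their inputs. For KD the medians were 29 and 23 with OGAP and 34 and 33 without it. Replicates differed by more than sampling noise on chromosome 12 (chi-square over its degrees of freedom 1.71 to 2.22), so each library counted as 1 replicate. Of the chromosome 12 windows, 207 overlapped another window. They held a median of 2.5 input reads, where the 827 others held 39.25, which leaves their values uncertain, since reads that fall in more than 1 window seem not to have been counted. A read minimum left 886 chromosome 12 windows to test; of the 148 left out, 147 overlapped another window, and 19 windows had no read in any library.

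Chromosome 12 was present at the level of a typical autosome in all 4 input libraries. Its level, taken as the 10% trimmed mean of reads per non-overlapping window divided by the median of the same value over the other 21 autosomes, was 0.97 and 0.986 in WT input and 1.0 and 1.003 in KD input. That is 0.989 ± 0.015 (SD, n = 4), which placed it 13th of 22 autosomes. With 3 copies over 2 it would be 1.5. The other autosomes spread from 0.843 (chromosome 18) to 1.321 ± 0.013 (SD, n = 4; chromosome 10), a spread wider than the distance of chromosome 12 from 1. A gain carried by only some cells would give a level between 1 and 1.5, and the smallest share of such cells that could be seen was not tested.

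**Figure D1:**
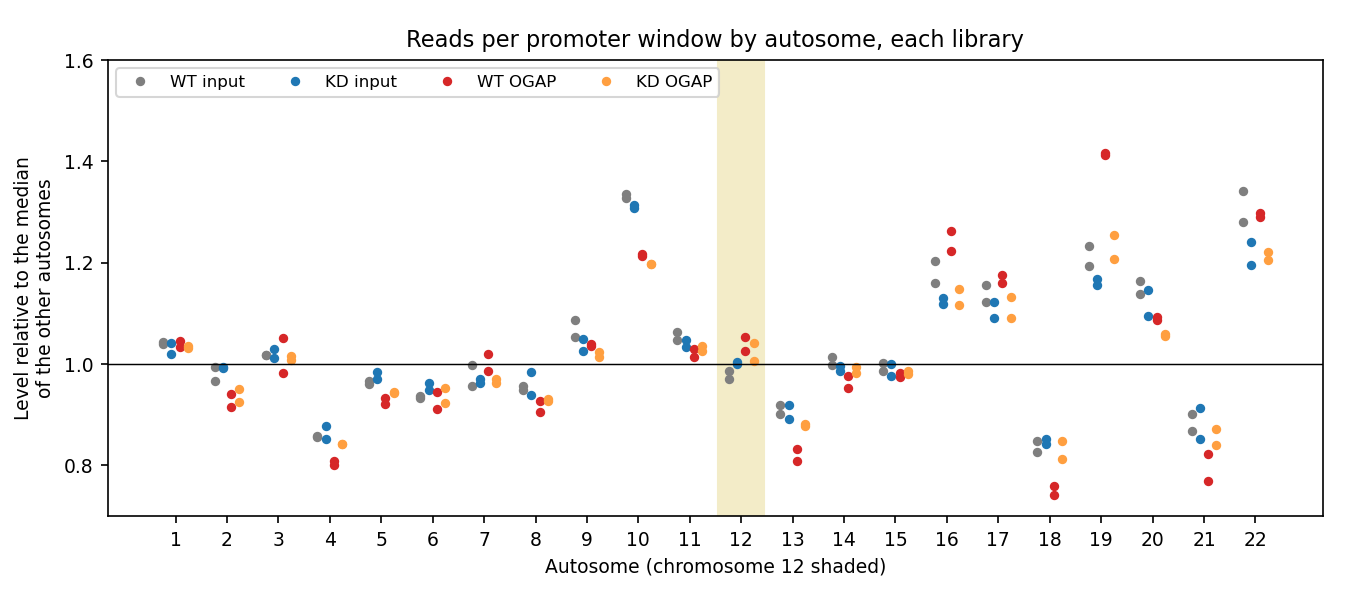
Level of each autosome in each of the 8 libraries, as the 10% trimmed mean of reads per non-overlapping promoter window over the median of the other autosomes (y axis, ratio); each point is 1 library. The chromosome 12 points, on the shaded band, lie between 0.97 and 1.053, while the inputs of chromosome 10 lie between 1.308 and 1.336.

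Along chromosome 12 no bin of consecutive windows had a mean input level above 1.4. Windows were grouped into 17 consecutive bins of 48 or 49. The mean input level of a bin ran from 0.678 to 1.175 with a median of 0.998, and 0 of 17 bins lay above 1.4. On chromosome 10, measured the same way, 7 of 13 bins lay above 1.4, with a median of 1.516, and on the other 20 autosomes 12 of 279 did. Bin 8 of chromosome 10 averaged 1.352, between neighbours at 1.657 and 1.516. Bin levels were not corrected for base composition, so a gain in a bin with a low level could stay under 1.4. The smallest gain that could be seen in a bin was not tested. The lowest chromosome 12 bin was the third (9606887 to 12563384), which starts at KLRB1 and holds natural killer and bitter taste receptor genes. Its inputs stood at 0.656 and 0.636 in WT and 0.673 and 0.749 in KD. The next lowest was the bin after it, up to 22047173, with a mean of 0.776 ± 0.055 (SD, n = 4). The highest was the tenth, from 56100330 to 57783588, at 1.175 ± 0.027 (SD, n = 4), and it holds the 2 named windows with the highest mean input. These are NXPH4, a neurexophilin, with 98 and 90 reads in WT input and 70 and 67 in KD input, and COXFA4L2, a mitochondrial protein related to a respiratory chain subunit, with 81 and 77, then 58 and 70.

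**Figure D2:**
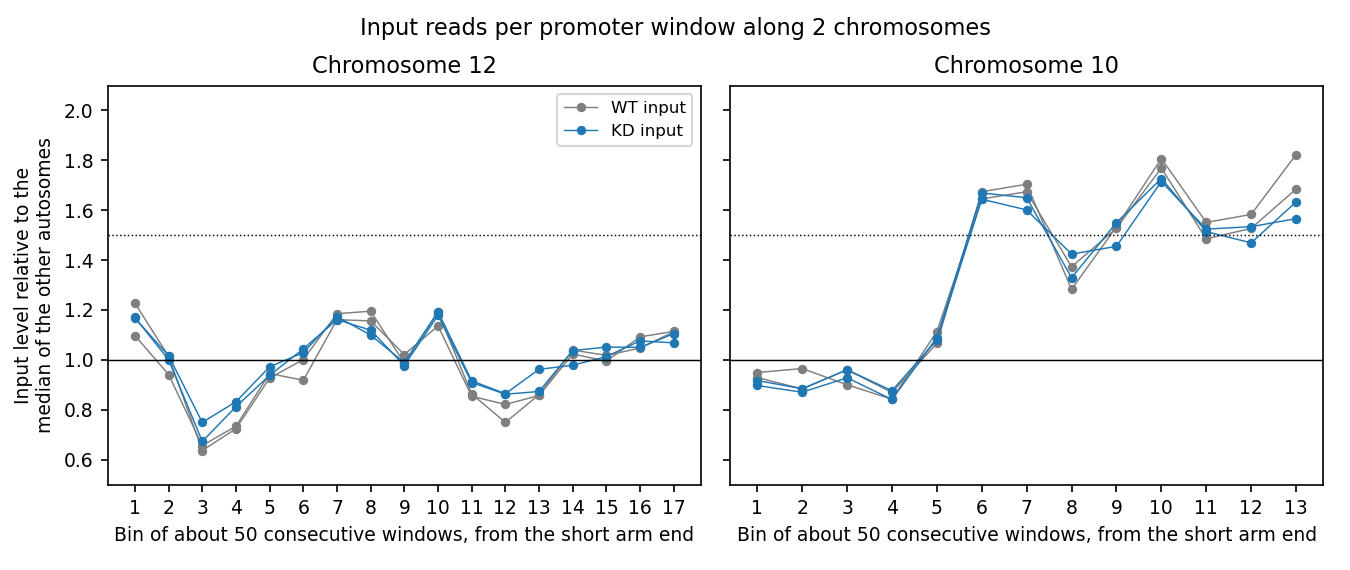
Input level (y axis, ratio to the median of the other autosomes) in consecutive bins of about 50 promoter windows along chromosomes 12 and 10 from the short arm end (x axis), with 1 line per input library and a dotted line at the 1.5 that 3 copies over 2 would give. Chromosome 12 bins stay between 0.678 and 1.175 on average, and 7 of 13 chromosome 10 bins average above 1.4.

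The arms differed in the same direction in every input library. The 243 non-overlapping short arm windows had input levels of 0.868 and 0.898 in WT and 0.916 and 0.939 in KD, a mean of 0.905 ± 0.03 (SD, n = 4). The 584 long arm windows had 1.011, 1.021, 1.033 and 1.028, a mean of 1.023 ± 0.01 (SD, n = 4). The gap was smaller in the pull-down, with OGAP levels of 0.987 ± 0.042 on the short arm and 1.051 ± 0.016 on the long arm (SD, n = 4 each). The difference between the arms was not tested.

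The chromosome's input level did not pass a test of KD against WT. KD input exceeded WT input by 0.024 (1.001 ± 0.002 against 0.978 ± 0.011, SD, n = 2 each; two-sided exact permutation p = 0.333, the smallest that 2 against 2 can give; 0.5 adjusted over 3 comparisons). This was the highest such difference of the 22 autosomes, but the libraries of the 2 states did not overlap in 10 of 22 autosomes (45.5%), 3 of them higher in KD. In bins of chromosome 12 the log2 ratio of KD to WT input ran from -0.08 to 0.17. Both KD inputs lay above both WT inputs in 6 of 17 bins and below in 2, where 17.2% and 24.9% of all autosomal bins did so. The 6 include the lowest 2 bins, on the short arm, with log2 ratios of 0.14 and 0.17.

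All 4 OGAP libraries held more of chromosome 12 than the 4 inputs did, by a small margin, in a test that could not pass after adjustment. The OGAP levels were 1.026 and 1.053 in WT and 1.005 and 1.042 in KD, a mean of 1.032 ± 0.021 (SD, n = 4). The difference of 0.042 gave a two-sided exact permutation p of 0.0286, the smallest for 4 against 4, and 0.0857 after adjustment over 3 comparisons. With these group sizes the adjusted value could not fall below 0.0857, so this test could not decide at 0.05. With the median window in place of the trimmed mean it was 0.014 (exact p = 0.571), with overlapping windows kept it was 0.027 (exact p = 0.114), and without any 1 input library it was 0.036 to 0.047 (exact p = 0.0571). Without any 1 OGAP library it was 0.035 to 0.051 and the exact p stayed at 0.0286. OGAP and input libraries did not overlap in 8 of 22 autosomes (36.4%); 7 of these were lower in OGAP and 1, chromosome 12, was higher. This is not particular to chromosome 12: chromosome 19 had a larger difference of 0.136 and OGAP above input within each state (1.413 and 1.416 with inputs of 1.193 and 1.232 in WT, 1.207 and 1.255 with 1.167 and 1.155 in KD), and overlapped only across states. KD and WT OGAP levels differed by -0.016 (exact permutation p = 0.667).

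In WT cells 94 of the 886 tested chromosome 12 windows were higher in OGAP than in input (10.6%), where 9.25% of all 17130 tested windows were, and 19 were lower (2.14%), where 4.45% of all were. The share of lower windows was the smallest of the 22 autosomes and the share of higher ones ranked 5th; neither rank was tested. The median log2 OGAP over input was 0.03 on chromosome 12 and -0.02 over all windows, with 90% of chromosome 12 windows between -0.94 and 1.47. The counts rest partly on single libraries. Without WT OGAP replicate 2 there were 56 higher and 12 lower, without WT input replicate 2 there were 45 and 5, and DESeq2 called 48 and 5.

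Leading windows were taken from named, non-overlapping windows with a read count at or above the median of the tested chromosome 12 windows. SIRT4, a mitochondrial sirtuin, had the lowest p among them (chr12:120301315-120303315, around its start). It held 157.4 and 168.7 CPM (reads scaled to the library's total of promoter reads) in WT OGAP, where WT input had 41.21 and 49.28, KD OGAP 73.19 and 68.91, and KD input 58.52 and 52.69. Both WT OGAP libraries stood far above the 6 others, and both KD OGAP libraries lay above every input library. The log2 OGAP over input in WT was 1.92 ± 0.31 (SE; adjusted p = 3.75e-06) and in KD 0.39 ± 0.32 (adjusted p = 0.658). MPHOSPH9, an M-phase phosphoprotein of the centriole (chr12:123243015-123245015), held 55 and 67 WT OGAP reads and 38 and 27 from the deeper WT input, a log2 of 1.94 ± 0.32 (adjusted p = 5.47e-06). Its KD value of 1.10 ± 0.35 did not pass (adjusted p = 0.106).

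STAC3, an adaptor of excitation-contraction coupling in muscle (chr12:57250194-57252194), was higher in both states. It held 127.5 and 156.1 CPM in WT OGAP over 32.97 and 49.28 in WT input, and 74.98 and 131.2 CPM in KD OGAP over 46.81 and 37.19 in KD input. In each state both OGAP libraries lay above both inputs. SNRNP35, a protein of the minor spliceosome (chr12:123456640-123458640), held 49 and 53 OGAP reads and 35 and 34 input reads in WT, and 62 and 46 OGAP reads and 23 and 33 input reads in KD. Their WT log2 values were 1.85 ± 0.33 (adjusted p = 2.19e-05) and 1.60 ± 0.32 (adjusted p = 0.000158).

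The other 4 leading windows passed in WT and not in KD. DHX37, an RNA helicase of ribosome biogenesis, held 51 and 45 OGAP reads and 29 and 27 input reads in WT, and 42 and 32 OGAP reads and 47 and 43 input reads in KD. Its log2 was 1.82 ± 0.33 (adjusted p = 4.12e-05) in WT and 0.15 ± 0.32 in KD, and the difference of the 2 did not pass its own test, given with the interaction. LALBA, which encodes the milk protein alpha-lactalbumin, had a WT log2 of 1.83 ± 0.33 (adjusted p = 4.69e-05). FAM186A had 1.86 ± 0.34 (adjusted p = 5.86e-05), and CAMKK2, a kinase that activates AMPK, had 1.65 ± 0.33 (adjusted p = 0.000159). All 8 calls held when any 1 library was left out and with DESeq2. Outside the naming rule, and picked after its values were seen, USP30 (a mitochondrial deubiquitinase) had the largest log2 on the chromosome, 2.73 ± 0.40, in a window that overlaps another, with 43 and 38 WT OGAP reads and 13 and 12 input reads.

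CD9, a tetraspanin of the cell surface (chr12:6198714-6200714), led the lower side. It held 21.7 and 17.62 CPM in WT OGAP under 75.56 and 84.29 in WT input, and 42.84 and 51.13 CPM in KD OGAP under 59.98 and 61.99 in KD input. WT OGAP was the lowest of the 4 groups and KD OGAP lay between it and the inputs. The WT log2 was -1.94 ± 0.43 (adjusted p = 0.000847). MLEC, a carbohydrate-binding protein of the endoplasmic reticulum (chr12:120685868-120687868), held 8 and 9 OGAP reads and 51 and 61 input reads in WT, and 39 and 25 OGAP reads and 47 and 43 input reads in KD. Its log2 was -1.66 ± 0.42 in WT (adjusted p = 0.0038) and near level in KD at -0.06 ± 0.34 (0.962). It lies in the same bin as SIRT4, which went the other way.

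The calls of the remaining lower windows did not all hold with fewer libraries, while their log2 values stayed negative in those fits. CACNA2D4, an auxiliary calcium channel subunit used in the retina, had a WT log2 of -1.68 ± 0.43 (adjusted p = 0.00401) that did not pass without WT OGAP replicate 2 (-1.47, 0.0674) or WT input replicate 2 (-1.21, 0.163). PIANP, a neuronal membrane protein, had -1.45 ± 0.38 (0.00459), not passing without WT OGAP replicate 1 (-1.24, 0.0659). COX14, an assembly factor of cytochrome c oxidase, had -1.29 ± 0.37 (0.0115), GLS2, a mitochondrial glutaminase, -1.34 ± 0.40 (0.0167), and YBX3, a cold-shock domain protein, -1.24 ± 0.42 (0.0328). None of the 3 passed without WT OGAP replicate 1 (0.0564, 0.0775 and 0.14), WT OGAP replicate 2 (0.0764, 0.0942 and 0.119) or WT input replicate 2 (0.0653, 0.122 and 0.235), nor with DESeq2 (0.068, 0.0799 and 0.128). Their log2 values moved by less than their SE in these fits, to between -1.31 and -1.29 for COX14, -1.35 and -1.21 for GLS2, and -1.34 and -1.02 for YBX3. RILPL1, which regulates protein content of the primary cilium, had -1.12 ± 0.40 (0.0456). It lost the call without any 1 of WT OGAP replicates 1 and 2 (0.261 and 0.0755), WT input replicates 1 and 2 (0.082 and 0.218) and KD input replicates 1 and 2 (0.0518 and 0.0508), with log2 values of -1.48 to -0.86. The 8 lower windows held 7 to 15 reads per WT OGAP library.

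**Figure D3:**
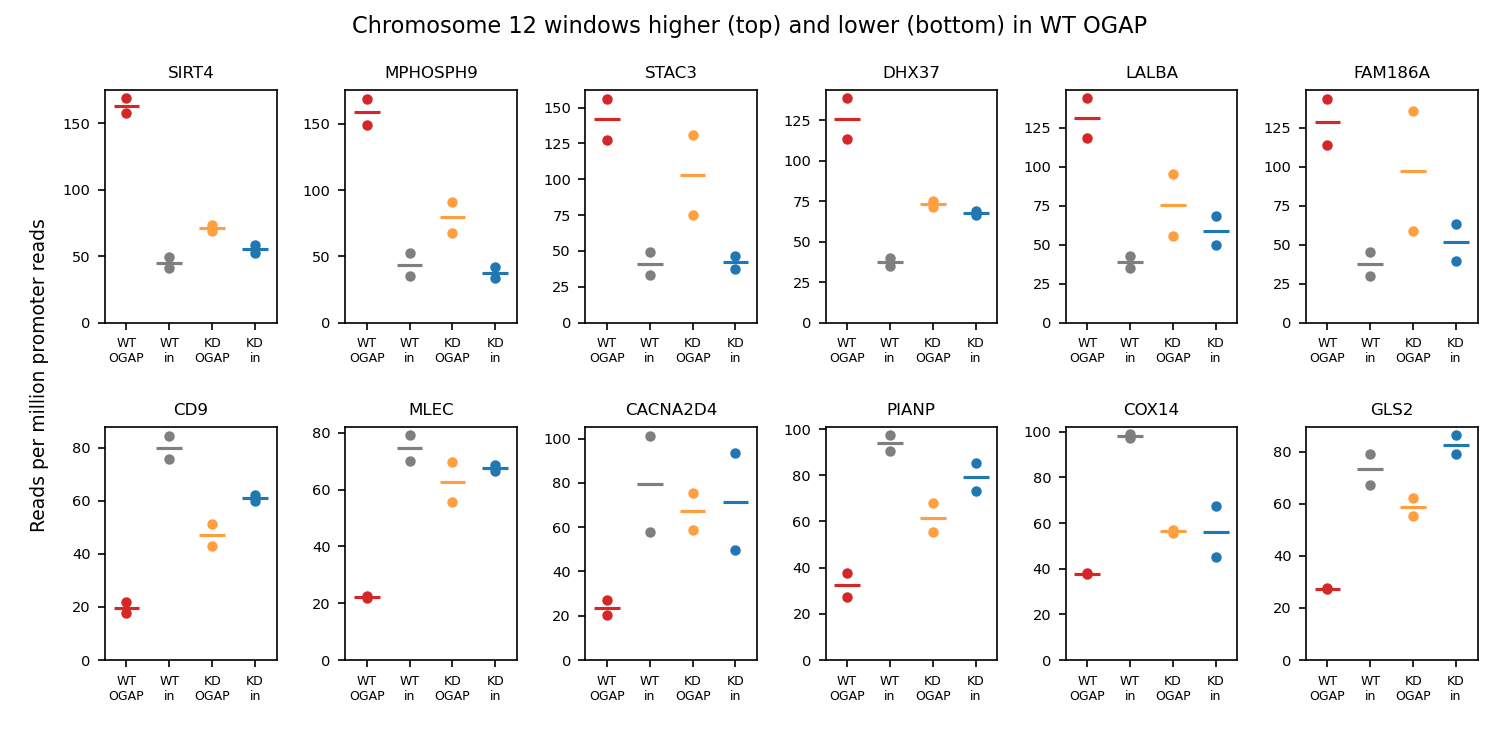
CPM, the reads scaled to all promoter reads of the library (y axis), in each library of the 4 groups (OGAP and input of WT, then of KD; in, input) for 6 chromosome 12 windows higher (top) and 6 lower (bottom) in WT OGAP; points are libraries and bars are means of 2. SIRT4 stands at 157.4 and 168.7 in WT OGAP above inputs of 41.21 and 49.28, and CD9 at 21.7 and 17.62 against 75.56 and 84.29.

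The share of higher windows varied along the chromosome, beside 9.25% over all tested windows. The second bin (6646461 to 9209371) held 13 higher windows of 49 (26.5%) and the sixteenth (119876292 to 123273335) held 11 of 48 (22.9%), while the fourteenth held 0 of 48. Both counts come from bins picked by them and were not tested. The genes of these bins given next, other than those named above, SLC2A3 and SLC2A14, were picked after their values were seen. The second bin contains APOBEC1, a cytidine deaminase that edits RNA (log2 1.80 ± 0.36 in WT), DPPA3, a factor of the early embryo (1.69 ± 0.40), NANOGNB (1.75 ± 0.36), C3AR1, a complement receptor (1.78 ± 0.37), and the glucose transporter pair SLC2A3 and SLC2A14. The sixteenth contains SIRT4, MPHOSPH9 and CAMKK2 with RPLP0, a ribosomal stalk protein (1.22 ± 0.30), IL31, an itch cytokine (1.21 ± 0.31), and HCAR1, the lactate receptor (1.01 ± 0.32). As whole bins, their log2 OGAP over input in WT was 0.37 and 0.30, and in KD 0.19 and 0.11.

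All 4 OGAP libraries lay above all 4 inputs in 2 of 17 bins, the second and the eighth (52021831 to 53939764, with keratin genes), where 6.47% of all autosomal bins did so. They lay below in 0 of 17, where 14.9% did. By gene density, 13 of 234 tested windows (5.56%) with at most 12 windows within 1 Mb were higher in WT OGAP, where 9.25% of all tested windows were. The share was 23 of 211 (10.9%) with 13 to 26 neighbours, 32 of 233 (13.7%) with 27 to 48, and 26 of 208 (12.5%) with 49 to 82. The medians over these 4 classes were -0.14, 0.10, 0.17 and 0.00 on chromosome 12, and -0.10, -0.02, 0.00 and 0.07 on the other autosomes. Shares of called windows in these classes were not compared with other autosomes.

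**Figure D4:**
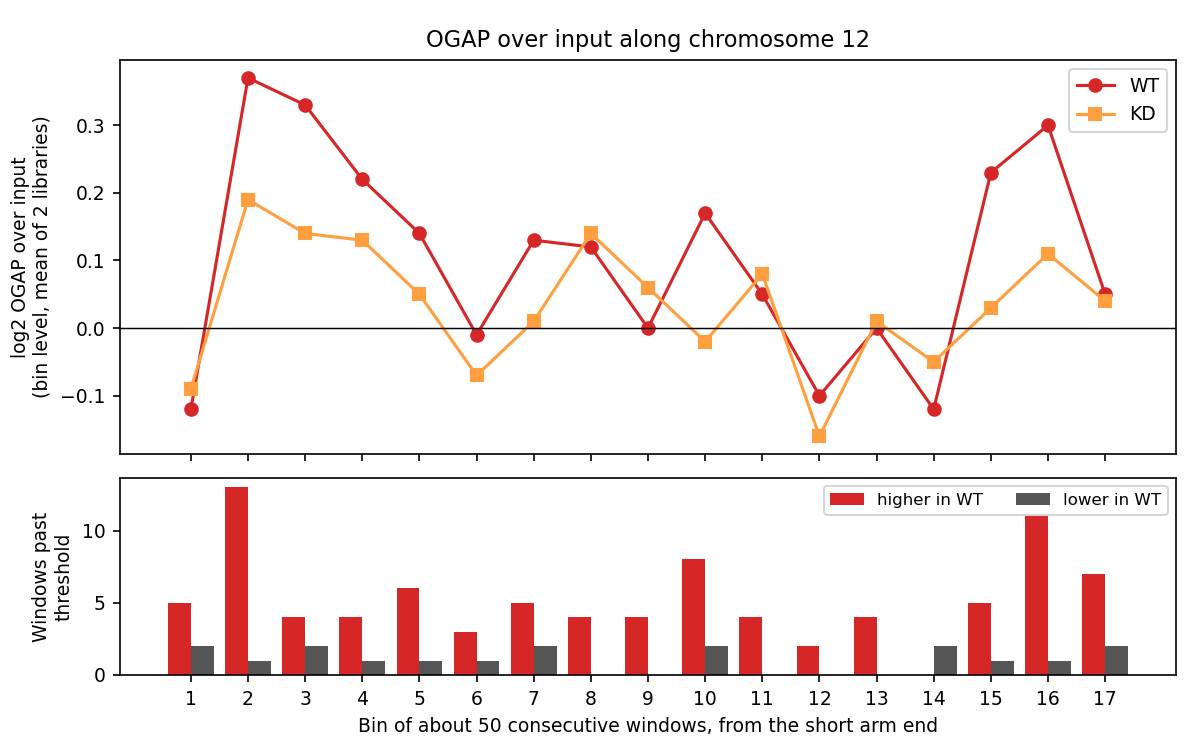
Top, log2 of the OGAP level over the input level (y axis, mean of 2 libraries) in 17 consecutive bins along chromosome 12 for WT and KD; bottom, windows per bin that passed the threshold in WT. The second and sixteenth bins reach 0.37 and 0.30 in WT and hold 13 and 11 higher windows.

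In KD cells 9 of 886 windows were higher in OGAP than in input (1.02%, against 0.63% of all tested windows) and 0 were lower (0.105% of all), by the edgeR test; 0.736% of all windows passed in either direction. At an unadjusted p under 0.05 there were 112 (12.6%, and 12.6% of all windows), and DESeq2 called 5 higher and 0 lower. The count fell to 0 without KD OGAP replicate 2 or KD input replicate 1 and to 1 without KD input replicate 2. Of the 9, 8 were also higher in WT, and the exception was LYZ, the gene of lysozyme, at 1.77 ± 0.40 in KD (adjusted p = 0.0129) and 0.95 ± 0.40 in WT (adjusted p = 0.0961). LYZ and the windows ENSG00000111671, ENSG00000069493, ENSG00000158104 and ENSG00000283396 fall outside the naming rule, for a low read count or for having no gene name.

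The 4 named windows were SNRNP35 and STAC3, described above, SLC2A14, a glucose transporter, and SMCO2. SNRNP35 had a KD log2 of 1.37 ± 0.32 (adjusted p = 0.0177) and STAC3 1.31 ± 0.33 (0.0334). SLC2A14 held 54 and 52 OGAP reads and 35 and 21 input reads in KD, a log2 of 1.37 ± 0.33 (0.024). It has a near-identical copy in SLC2A3, and how reads of such copies were placed is not given, so both values are uncertain. SMCO2 held 33 and 51 against 25 and 16, a log2 of 1.50 ± 0.37 (0.0242). None of the 4 passed without KD OGAP replicate 2 (adjusted p 0.152 to 0.534), KD input replicate 1 (0.0853 to 0.352) or KD input replicate 2 (0.0684 to 0.303), and SNRNP35 did not pass without KD OGAP replicate 1 either (0.0869).

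On the lower side of KD no named window passed. WNT1, a secreted growth factor, had -1.14 ± 0.35 (adjusted p = 0.0957). SYT10, a synaptotagmin, had -1.17 ± 0.39 (0.134); without KD OGAP replicate 1, which held 29 reads against 6 in replicate 2, it passed at -2.50 (0.0214). ZBTB39, a zinc finger protein, had -0.89 ± 0.35 (0.237).

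Most windows called higher in WT pointed the same way in KD at a smaller size, and those called lower did so less often. Of the 94 higher in WT, 89 had a positive log2 in KD, with a median of 1.39 in WT and 0.60 in KD. Of the 19 on the lower side, 13 had a negative KD value, and the WT and KD medians were -1.34 and -0.09. Since the WT values chose these windows, their WT medians are extreme by choice. The KD median over the 886 tested chromosome 12 windows was 0.07, and the share with a positive KD value was not counted. Over all 886 windows WT and KD log2 values had r = 0.51, a description across windows of values that share no library.

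**Figure D5:**
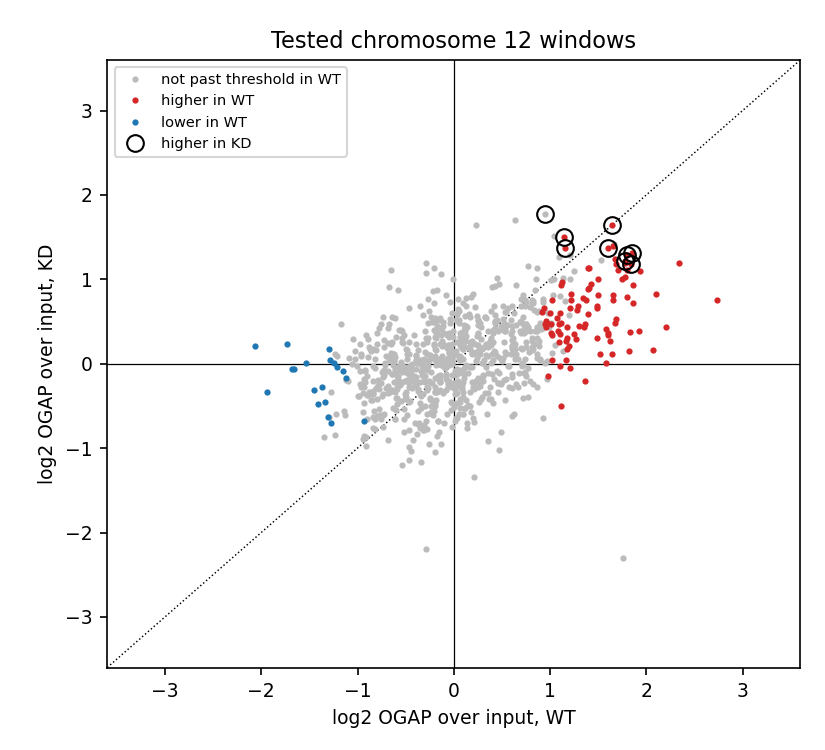
Log2 OGAP over input in WT (x axis) and KD (y axis) for the 886 tested chromosome 12 windows; colours mark windows past the threshold in WT and open circles those past it in KD, and the dotted line marks equal values. The 94 higher windows have a median of 1.39 in WT and 0.60 in KD.

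Setting KD OGAP directly against WT OGAP, 1 of 886 windows was lower in KD (0.113%, against 0.0175% of all) and 0 were higher (0.0175% of all), by the edgeR test; 0.035% of all windows passed in either direction. At an unadjusted p under 0.05 there were 85 (9.59%, against 10.6% of all), and DESeq2 called 0. The window is ENSG00000161813 at chr12:50391382-50393382 on the plus strand, to which no single RefSeq gene start could be assigned. WT OGAP gave it 57 and 78 reads and the deeper KD OGAP 36 and 28, while its inputs held 35 and 25 (WT) and 32 and 32 (KD). The KD value was lower by 1.52 on the log2 scale (-1.52 ± 0.31, adjusted p = 0.0177), with input nearly level at 0.25 ± 0.34. It also had the lowest p of chromosome 12 in WT, at 2.20 ± 0.31 over input (adjusted p = 2.33e-07), and both comparisons use the same WT OGAP libraries. The call did not hold without WT OGAP replicate 2 (-1.33, adjusted p = 0.16), KD OGAP replicate 1 (-1.54, 0.237) or KD OGAP replicate 2 (-1.50, 0.0964), nor with DESeq2 (-1.55, 0.231).

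The next named windows did not pass and included several described above. On the higher side, MLEC had 1.45 ± 0.44 (adjusted p = 0.23), CACNA2D4 1.45 ± 0.45 (0.23), YBX3 1.30 ± 0.43 (0.262) and ANHX, a homeobox gene, 1.08 ± 0.41 (0.339). On the lower side, SIRT4 had -1.24 ± 0.31 (0.106), MPHOSPH9 -1.06 ± 0.31 (0.211), MDM2, the ubiquitin ligase of p53, -1.25 ± 0.37 (0.212) and TIMELESS, a replication fork protein, -1.24 ± 0.38 (0.223). MDM2 held 39 and 34 WT OGAP reads and 24 and 18 from the deeper KD OGAP, which do not overlap.

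In input, 0 of 886 windows differed between KD and WT by edgeR (0% of all windows), 31 had an unadjusted p under 0.05 (3.5%, against 4.41% of all), and DESeq2 called 0. The smallest adjusted p on the chromosome was 0.999. The median log2 was 0.04 on chromosome 12 and -0.01 over all windows. The named windows with the lowest p were, on the higher side, DHX37 (0.84 ± 0.33), the HSP90 co-chaperone FKBP4 (0.71 ± 0.31), the autophagy gene DRAM1 (0.80 ± 0.35) and HOXC13 (0.69 ± 0.33). On the lower side they were the pseudouridine synthase PUS1 (-1.02 ± 0.32), the elastase CELA1 (-0.88 ± 0.32), the Wnt co-receptor LRP6 (-0.95 ± 0.35) and COX14 (-0.81 ± 0.32).

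The interaction, which is the change of OGAP over input from WT to KD, passed in 0 of 886 windows by edgeR (0.00584% of all windows higher and 0% lower). At an unadjusted p under 0.05 there were 65 (7.34%, against 8.14% of all), DESeq2 called 0, and the smallest adjusted p was 0.262, at ENSG00000161813 (-1.77 ± 0.47). Without WT OGAP replicate 1 there was 1 higher window. MLEC (1.60 ± 0.55), CACNA2D4 (1.61 ± 0.56), CD9 (1.60 ± 0.58) and PUS1 (1.58 ± 0.48) had the lowest p on the higher side. DHX37 (-1.67 ± 0.46), SIRT4 (-1.52 ± 0.45), TIMELESS (-1.61 ± 0.51) and LALBA (-1.45 ± 0.47) had it on the lower side, with adjusted p from 0.321 to 0.399, where the 4 higher ones had 0.324 to 0.46. The PUS1 value joins a KD against WT log2 of 0.56 ± 0.36 in OGAP with one of -1.02 ± 0.32 in input, neither of which passed. WT input held 51 and 97 reads and KD input 28 and 37, while KD OGAP held 44 and 46 and WT OGAP 18 and 27.

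Among the glycosylases of base excision repair encoded on the chromosome, none passed in any comparison. SMUG1, which removes uracil and oxidised pyrimidines, held 25 and 34 OGAP and 40 and 33 input reads in WT, and 24 and 30 OGAP and 43 and 37 input reads in KD, with a WT log2 of 0.73 ± 0.36 (adjusted p = 0.163). UNG, the main uracil glycosylase, had -0.12 ± 0.34 in WT (0.861) and 0.27 ± 0.34 in KD (0.796). TDG, the thymine glycosylase, lies in an overlapping window with 0 to 2 reads per library and was not tested. Of 16 other DNA repair and replication genes, 13 had a named window and 6 were tested. PARP11, a mono-ADP-ribosyltransferase (1.49 ± 0.47, adjusted p = 0.0204), and TIMELESS (1.11 ± 0.35, 0.0228) were higher in WT OGAP, where 9.25% of all windows were. The list's median was 0.46 where all windows had -0.02. TIMELESS held 38 and 33 OGAP reads and 30 and 38 input reads in WT, and 24 and 17 OGAP reads and 34 and 44 input reads in KD, where its log2 was -0.50 ± 0.37 (0.615). Neither passed with DESeq2 (0.0874 and 0.108) or without WT OGAP replicate 1 (0.128 and 0.154), WT input replicate 1 (0.0978 and 0.149) or WT input replicate 2 (0.102 and 0.0863).

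Of the growth control genes, 18 of 26 were tested and 1 was higher in WT, the transcription factor ATF1 (1.18 ± 0.32, adjusted p = 0.0074; not passing without WT OGAP replicate 2, 0.102, or WT input replicate 1, 0.0778). The list's medians were -0.08 in WT and -0.48 in KD, against -0.02 and 0.03 for all windows, of which 9.25% were higher in WT. Spindle, centrosome and cytokinesis genes (10 tested of 22) had 0 called (13.7% of all windows were in WT) and medians of -0.14 and -0.11. TUBA1B, an alpha-tubulin, came nearest, at -0.93 ± 0.38 in WT (0.0878), with 15 and 14 WT OGAP reads and 67 and 47 input reads.

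Windows of the clustered gene families held a median of 18.2 to 44.8 input reads. Among all windows 13.7% were called in WT in either direction. The 24 tested type II keratin and KRT18 windows held a median of 41.6 input reads, with 0 called and a WT median of -0.05; keratins are close copies of one another and their values share that uncertainty. The 5 tested HOXC genes, which pattern the body axis, had 0 called and a WT median of -0.37. Of 26 natural killer complex genes, 14 had a named window and 13 were tested, and genes without a named window are not in these counts. The 13 tested windows held a median of 22 input reads, and 2 were higher in WT (9.25% of all windows were), with a list median of 0.72 where all windows had -0.02. These were KLRB1, an inhibitory receptor (1.62 ± 0.43, adjusted p = 0.00592), and CLEC4E, a C-type lectin that senses mycobacterial lipid (1.39 ± 0.42, 0.0171). KLRB1 held 30 and 24 OGAP reads and 22 and 14 input reads in WT, and 19 and 25 OGAP reads and 28 and 22 input reads in KD, where its log2 was 0.27 ± 0.43 (0.852). The call of KLRB1 was lost without WT OGAP replicate 1 (0.0828) or WT input replicate 2 (0.125). CLEC4E did not pass without WT OGAP replicate 2 (0.288) or WT input replicate 2 (0.196), nor with DESeq2 (0.0952).

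The third bin holds bitter taste receptors along with KLRB1, while CLEC4E lies in the second bin. The 12 bitter taste receptors tested held a median of 25 input reads. They had 0 called (13.7% of all windows were in WT), with a WT median of 0.12. Of 7 olfactory receptors tested, with a median of 18.2 input reads, OR6C65 (1.65 ± 0.46, adjusted p = 0.00872) and OR6C68 (1.86 ± 0.61, 0.0294) were higher in WT, beside 9.25% of all windows, and the median was 0.16, beside -0.02 over all windows. Neither passed with DESeq2 (0.0503 and 0.102) or without WT OGAP replicate 2 (0.0686 and 0.207); OR6C65 was also lost without WT input replicate 2 (0.179) and OR6C68 without WT input replicate 1 (0.212). Receptor families hold close copies, so that their reads may be shared between genes.

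Metabolic genes were mixed. Of 10 glycolysis and aldehyde genes tested (of 14), the glucose transporters SLC2A3 (1.49 ± 0.37, adjusted p = 0.00301) and SLC2A14 (1.16 ± 0.34, 0.0127) were higher in WT and SLC2A14 also in KD (over all windows 9.25% were higher in WT and 0.63% in KD); the WT median was 0.36, where all windows had -0.02. SLC2A3 was lost without WT input replicate 2 (0.146). SLC2A14 was lost in WT without WT OGAP replicate 2 (0.121), WT input replicate 1 (0.0931) or WT input replicate 2 (0.0588), and with DESeq2 (0.0696). Of 9 mitochondrial genes tested (of 15), NDUFA12, a subunit of respiratory complex I (1.20 ± 0.38, 0.0226), was higher and COX14 lower. Among all windows 9.25% were higher and 4.45% lower, and the list's WT median was 0.24. COXFA4L2, a mitochondrial gene that the list did not match by this name, was also lower in WT (-0.93 ± 0.34, 0.0497). This window was picked for its high input reads, which favours a low OGAP over input. Its call was not checked with DESeq2 or with fewer libraries. NDUFA12 did not pass with DESeq2 (0.104) or without any 1 of the 4 WT libraries (0.0796 to 0.146).

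Of 13 tested members of the interferon and cytokine list, which also holds immune cell-surface genes, only CD9 passed, on the lower side; CD9 is a tetraspanin and neither an interferon nor a cytokine. The WT median was 0.17. Of all windows 4.45% were lower in WT and 13.7% were called in either direction. IFNG, the gene of interferon gamma, had 1.01 ± 0.45 (adjusted p = 0.12). The 9 tested genes of vision and pigment cells, the tissue the line came from, had 0 called, a WT median of 0.47 and a median of 19.8 input reads. Of its 4 members with the lowest p, 3 had positive WT values: BBS10, a chaperonin-like protein of the cilium (0.86 ± 0.37, adjusted p = 0.107), decorin, DCN (0.81 ± 0.56, 0.351), and PDE6H, a phosphodiesterase subunit of cones (0.56 ± 0.41, 0.386). RDH5, a retinol dehydrogenase of the visual cycle, had -0.60 ± 0.35 in WT (0.245) and 0.32 ± 0.32 in KD (0.735). Over all 13 lists no tested member passed when KD was set against WT in OGAP or in input, or in the interaction.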

How the data were processed

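The values analysed are whole-number counts of reads per promoter window, deposited by the authors as 1 table for 8 libraries. The submitters' processing notes name build hg38, featureCounts, bedtools, MACS2 and BWA 0.7.17-r1188; how these were combined is not given in the sources used here. Coverage profiles over all genes were not used, since they have no chromosome.

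All windows were fitted together in edgeR 4.0.16 (R 4.3.3) with TMM scaling, filterByExpr, 4 group means and the quasi-likelihood F test, two-sided. Adjusted p-values are Benjamini-Hochberg over the 17130 tested windows, with a threshold of 0.05; the number in parentheses after a log2 ± SE is this adjusted p unless another test is named. The SE is back-calculated from the log2 change and F, and is approximate. Variation between libraries beyond counting noise was 0.178 (common coefficient), with 98.4 prior and 4 residual degrees of freedom. A window's error is therefore mostly that of all windows. The code was tested on simulated counts.

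Windows were named where the centre lay within 500 bp of exactly 1 RefSeq gene start on the same strand (778 of 1034, or 75.2%; 1.11% of all windows after a shift of 200000 bp). Named per comparison were up to 8 windows a side with the lowest p among those called, filled to 4 where fewer passed. They needed a name, no overlap and a mean count of at least 32.1, the median of the tested chromosome 12 windows. The 4 highest inputs were taken without these limits. List genes (up to 4 a list with the lowest p in WT, all glycosylases) needed a name alone, so some have fewer reads or overlap another window. The call by identifier was added, and genes picked after seeing values are marked. One window named by this rule is not reported here. The members and the 13 lists were chosen with earlier results of these data known. Replicate numbers did not pair libraries: differences between replicates correlated at -0.041 to 0.023 between groups over 16694 windows.

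Alternatives were DESeq2 1.42.0, other scalings, no read filter, non-overlapping windows, a replicate block and leaving out each library. The labels name no molecular identifiers, so reads need not be independent molecules.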

Additional observations from a re-analysis of the deposited data

How the results depend on the processing

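For the level of chromosome 12 in OGAP against input (0.042), the plain mean gave 0.046 (exact permutation p = 0.0571), the median window 0.014 (p = 0.571), all windows 0.027 (p = 0.114) and the replicate block 0.042 (exact sign-flip p = 0.125, the smallest possible for 4 differences); without 1 library it ran from 0.035 to 0.051. The input level stayed at 0.979 to 0.996 under each alternative run. The correction for base composition was not run, because 60.3% of chromosome 12 windows had a promoter sequence.

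Windows called in WT numbered 113; DESeq2 gave 53, and leaving out 1 library gave 50 to 117. In KD (9 called) DESeq2 gave 5, and leaving out 1 library 0 to 10. For KD against WT in OGAP (1 called) DESeq2 gave 0, and leaving out 1 library 0 to 1. The interaction had 0, and 0 to 1 with 1 library left out. Other scalings, no read filter and non-overlapping windows kept each count within 1.5 times. With the replicate block the counts were 106, 8, 1, 0 and 0, and RILPL1 lost its call (-1.12, adjusted p = 0.0523); same-numbered libraries share only a number. Of 776 values for named windows with 1 library left out, 711 kept direction and side of the threshold, 58 lost the call, 5 gained one and 2 changed sign: UNG (-0.30 to 0.04, positive without WT OGAP replicate 2) and HOXC8 (-0.76 to 0.01, positive without WT input replicate 2); the cause was not tested. Of 671 under other settings, 657 kept both, 13 lost the call and 1 gained it. WT OGAP depth, a median of 16 and 18 reads a window, limits the precision of windows lower in OGAP.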
